A study of Mus musculus with 48 samples.

Results

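Lungs of regular weight mice that breathed mainstream cigarette smoke were compared with lungs of regular weight mice that breathed sidestream smoke. The comparison took the 16 arrays whose titles name these groups, 8 for each smoke, out of 48 arrays in the series, and it ran over 12393 genes. All animals were male C57BL/6 mice, 15 weeks old at the first exposure, and they breathed through a nose-only system for 5 h a day in 8 exposures over 2 weeks, with necropsy the day after the last one. About 5% of the calories of their regular diet came from fat. Further groups of 8 served as reference: regular weight animals in filtered air, and obese animals in either smoke. The obese animals were made obese by a diet with 60% of calories from fat. Another 8 obese animals in filtered air were compared with no group here, but their arrays entered the common estimate of the spread. RNA of each lung was measured on 1 Affymetrix array, and values are log2 signals, so a difference of 1 is a 2-fold difference. The concentration of either smoke is not given in the sources used here, so the kind of smoke and the amount that reached the lung cannot be told apart. The growth protocol in the labels also mentions an exposure to lipopolysaccharide (LPS), a bacterial product that inflames the lung, while the titles and the treatment protocol name none. Whether any of these animals received it is not given in the sources used here.

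Mainstream smoke is drawn through the cigarette and inhaled, while sidestream smoke rises from the burning tip between puffs and makes up most of what a bystander breathes. In the lung, inhaled smoke meets the airway epithelium and the alveolar macrophages, which take up particles and surfactant lipid. Macrophages and epithelium can release chemokines that draw in neutrophils and monocytes, and macrophages that take up much debris enlarge their lysosomes. Polycyclic hydrocarbons of smoke bind the aryl hydrocarbon receptor and induce cytochrome P450 genes, and reactive compounds activate NRF2, which induces genes of glutathione synthesis.

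The tissue label was met by the defining lung markers. The alveolar type 2 marker Sftpc lay at 15.0 or above on all 16 smoke arrays, the club cell marker Scgb1a1 between 15.1 and 15.2, and the alveolar type 1 marker Ager between 13.4 and 13.7. The liver transcript Alb lay between 5.56 and 6.06. Array RW-SS-6, of sidestream animal 6, stood apart, with a mean correlation of 0.979 to the other 47 arrays, against 0.986 or more for the other 15 smoke arrays. On it Ucp1, the uncoupling protein of brown fat, lay at 13.0, while the other 7 sidestream arrays lay at 5.05 or below. The summed level of the 24 fat genes, as the mean deviation of each gene from its mean over all arrays, ran from -0.64 to 3.16 over the sidestream arrays and from -0.57 to 0.28 over the mainstream arrays. The 3' to 5' signal ratio of the beta-actin control, a measure of RNA integrity, was 0.51 ± 0.13 (log2, SD, n = 8) for mainstream and 0.48 ± 0.12 for sidestream.

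Mainstream and sidestream lungs differed in 1211 genes, 9.77% of those tested (limma, adjusted p under 0.05). Of these, 750 were higher with mainstream smoke, 6.05% of all genes, and 461 lower, 3.72%. The high side held the large differences: 71 genes were more than 2-fold higher and 7 more than 2-fold lower. Past 1.5-fold there were 258 called genes, 2.08% of all, 224 higher and 34 lower. The median absolute difference of the called genes was 0.33, and the median over all genes was -0.02. For 368 genes every mainstream array lay above every sidestream array, 2.97% of all genes, and for 124 genes every one lay below, 1%, together 3.97%. Without RW-SS-6, 1076 genes were called, 986 of them among the 1211. The count rose to 2116, 1086 higher and 1030 lower, without RW-SS-6 and 4 arrays of obese animals that also stood apart, so that 51.3% of called genes were higher in place of 61.9%. The low side depended more on single animals than the high side, with 279 genes called lower without mainstream animal 7.

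**Figure D1:**
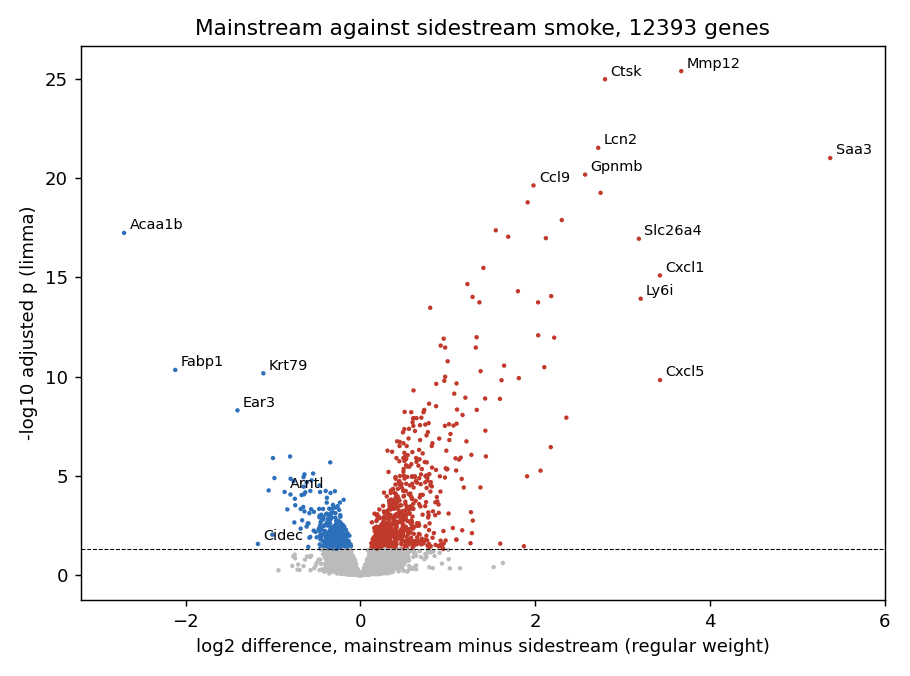
Difference between the smokes for each of the 12393 genes (x axis, log2 mainstream minus sidestream, regular weight) against -log10 of the adjusted p (y axis); red points were called higher and blue points lower in mainstream, and the dashed line marks an adjusted p of 0.05. The right arm reaches a log2 difference of 5.38 at Saa3 and the left arm -2.70 at Acaa1b.

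The filtered air arrays, which are the common reference of the next counts, place these differences. Mainstream lungs differed from air in 1819 genes, 14.7% of all, with 819 (6.61%) higher and 1000 (8.07%) lower. Sidestream lungs differed from air in 269 genes, 2.17%, with 86 (0.694%) higher and 183 (1.48%) lower. Of the 71 genes more than 2-fold higher in mainstream than in sidestream, 70 were called higher in mainstream than in air and 0 were called higher in sidestream than in air (limma; 2 at an unadjusted p under 0.05). The median sidestream minus air difference of these 71 genes was -0.04, and their median mainstream minus air difference was 1.42. Among the 34 genes more than 1.5-fold lower in mainstream, the median was -0.51 for mainstream minus air and 0.19 for sidestream minus air. These comparisons share the air arrays, and each also shares its smoke arrays with the main comparison. Another pattern was held by 12 genes past 1.5-fold whose sidestream mean was called against air and lay farther from air than the mainstream mean. They included the clock genes Arntl, Dbp, Nr1d1 and Bhlhe40 as well as Tsc22d3, Tfrc, Junb and Fcer2a.

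Chemokines that attract neutrophils and monocytes were far higher with mainstream smoke. Of 5 measured neutrophil-attracting CXC chemokines, 3 were called higher, with a median difference of 2.06 over the 5. Cxcl1, a ligand of the neutrophil receptor CXCR2, lay between 7.67 and 9.72 (median 9.16) on the mainstream arrays, between 5.00 and 6.35 (median 5.64) on the sidestream arrays, and between 4.93 and 5.62 in air. The groups did not overlap, and the difference was 3.43 ± 0.24 (log2, SE), or 10.8-fold (limma, adjusted p = 7.96e-16). Cxcl5, another CXCR2 ligand, lay between 6.61 and 9.45 (median 8.81) with mainstream and between 4.47 and 6.31 (median 5.11) with sidestream, again without overlap, a difference of 3.43 ± 0.34. Cxcl2 lay between 4.95 and 6.56 (median 6.29) and between 3.83 and 4.59 (median 4.06), a difference of 2.06 ± 0.32, and mainstream animal 5 was the lowest. In all, 5 of 19 CXC chemokines and receptors were called higher, 0 lower, with a median of 0.10.

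CC chemokines and their receptors followed with 11 of 22 higher and 1 lower, and a median of 0.61. Among the 9 monocyte-attracting members 6 were higher, with a median of 1.55. Ccl2, the main ligand of the monocyte receptor CCR2, lay between 6.68 and 8.93 (median 8.14) with mainstream smoke and between 5.26 and 5.85 (median 5.77) with sidestream smoke. Its difference was 2.36 ± 0.28 (SE), 5.12-fold, without overlap. Ccl3, a macrophage inflammatory protein, was 4.53-fold higher, and Ccl9, a CCR1 ligand, 3.95-fold higher. Ccl17 and Ccl22, ligands of the T cell receptor CCR4, were 4.1-fold and 3.06-fold higher, each without overlap of the groups. The receptors Ccr1 and Ccr2 themselves were higher by 0.99 ± 0.15 and 0.71 ± 0.13, though the other probe set of Ccr1 differed by 0.30 ± 0.13 (adjusted p = 0.146). Ccl27a, a homeostatic chemokine, was the member called lower, by -0.46 ± 0.08. Cxcl10, an interferon-induced ligand of the T cell receptor CXCR3, was called at 1.87 ± 0.60 (adjusted p = 0.0352), but the groups overlapped and mainstream animal 7 alone reached 10.7, the next animal 8.21. Without that animal the difference was 1.48 with an adjusted p of 0.121, and the call was lost in 8 of the 16 fits that leave out 1 array.

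**Figure D2:**
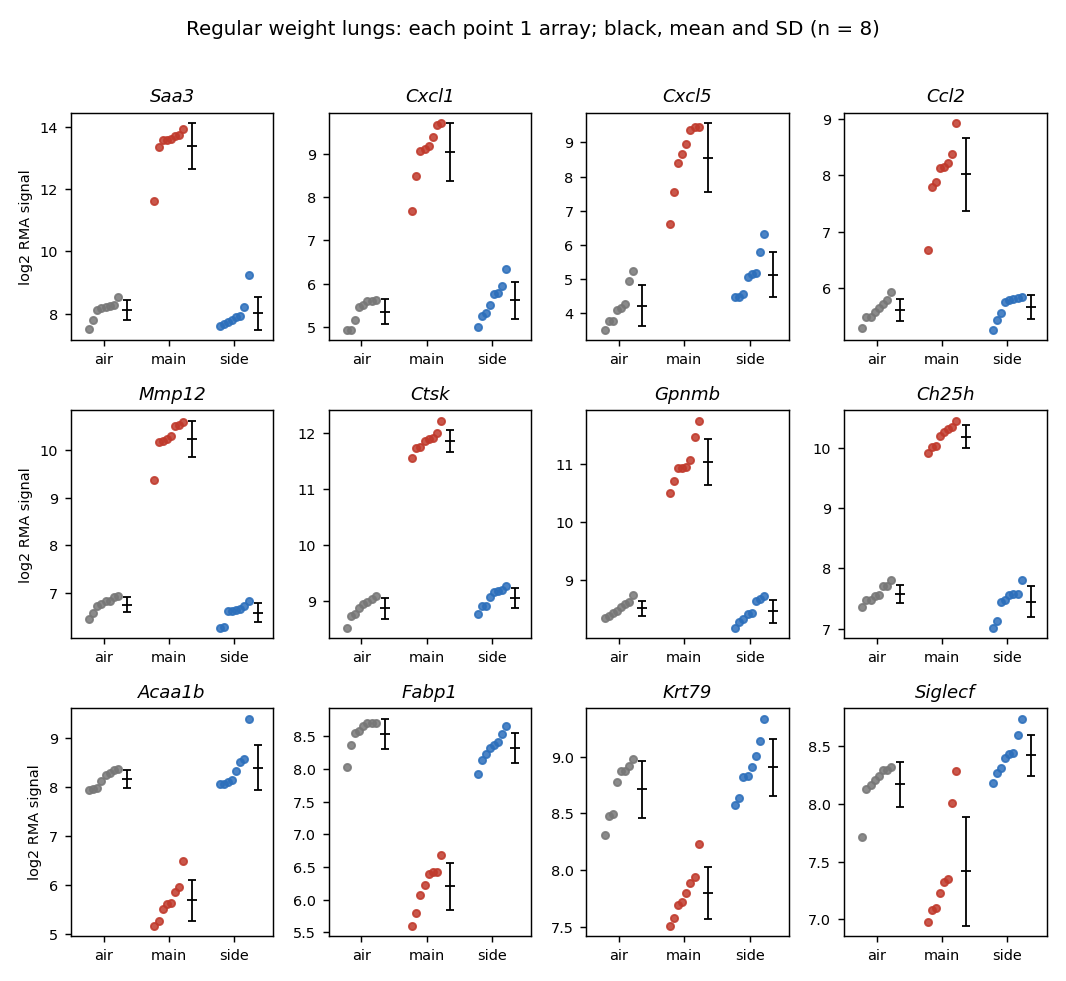
Log2 signal (y axis, own scale per panel) of 12 genes on every regular weight array, for filtered air (grey), mainstream (red) and sidestream smoke (blue), 8 animals each; black bars give the mean and SD. In the upper 8 panels the mainstream points lie above both other groups without overlap, and in the Acaa1b, Fabp1 and Krt79 panels they lie below both.

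The promoters of the inflammatory genes were read because their members moved together, and NF-kB, the factor that many of these genes are known to respond to, binds a known site. The core GGANTTTCC was searched on both strands in the RefSeq windows from 250 bases before to 50 bases after the start site (GRCm38.p6). It was present in 1.25% of the 32851 windows searched and in 1.72% of the tested genes that have such a window. The windows of a chromosome were left out of the search, so its genes count as genes without a window. Of 52 genes called higher in the chemokine, cytokine and acute phase lists, 39 had a window and 9 held the core: Csf1, Cxcl1, Cxcl10, Cxcl2, Il6, Nfkb2, Nfkbia, Tnfaip2 and Tnfaip3. A match describes letters, not binding. Members of these lists that were not called higher were not counted, and the lists were chosen with earlier results known. The count therefore cannot tell a trait of the called genes from a trait of the lists. Windows of 3 of these genes are shown, with the core in capitals. They were picked among the genes that hold the core, and Cxcl10, which differed more than Il6, is not shown.
Cxcl1, chr5:90890995-90891294, plus strand: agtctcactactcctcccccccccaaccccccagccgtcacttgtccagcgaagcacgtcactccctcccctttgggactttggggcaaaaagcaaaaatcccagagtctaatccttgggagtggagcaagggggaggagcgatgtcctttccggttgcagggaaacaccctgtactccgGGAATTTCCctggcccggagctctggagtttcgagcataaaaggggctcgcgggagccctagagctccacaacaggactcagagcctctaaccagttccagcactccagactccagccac
Cxcl2, chr5:90903649-90903948, plus strand: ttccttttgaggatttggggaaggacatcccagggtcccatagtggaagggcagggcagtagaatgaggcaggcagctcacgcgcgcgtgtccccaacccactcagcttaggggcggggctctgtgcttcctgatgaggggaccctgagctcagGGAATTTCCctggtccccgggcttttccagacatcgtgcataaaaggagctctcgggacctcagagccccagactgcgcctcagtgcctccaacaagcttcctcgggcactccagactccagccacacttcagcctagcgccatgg
Il6, chr5:30012864-30013163, plus strand: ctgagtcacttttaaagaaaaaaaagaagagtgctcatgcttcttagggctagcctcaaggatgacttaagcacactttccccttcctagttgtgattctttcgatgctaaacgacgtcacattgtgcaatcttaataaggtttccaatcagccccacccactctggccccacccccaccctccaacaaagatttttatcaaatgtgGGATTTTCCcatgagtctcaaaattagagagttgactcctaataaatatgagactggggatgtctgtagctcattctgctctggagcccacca

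Interleukins, TNF family members and growth factors were higher in 22 of 51 cases and lower in 0, with a median of 0.19. Il6, the inducer of acute phase genes, lay between 4.84 and 5.96 (median 5.21) with mainstream smoke and between 3.50 and 4.37 (median 4.02) with sidestream smoke. The groups did not overlap, and the difference was 1.26 ± 0.38 (SE; limma, adjusted p = 0.0249). Without mainstream animal 7 it was 1.16 with an adjusted p of 0.0641. Il1rn, the antagonist of the interleukin 1 receptor, was 2.08-fold higher, and Il33, an epithelial alarmin, 1.88-fold higher. Colony stimulating factors and receptors gave 5 of 7 higher: Csf2, the GM-CSF that alveolar macrophages depend on, was higher by 1.10 ± 0.13, and its receptor subunit Csf2rb by 0.82 ± 0.12. Socs3, an inhibitor of interleukin 6 signalling, was higher by 0.90 ± 0.17 and Relb, a subunit of NF-kB, by 0.75 ± 0.12.

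Acute phase genes held the largest difference of the comparison, and 15 of 27 were higher with mainstream smoke, 0 lower, median 0.57. Saa3, the serum amyloid made outside the liver, lay between 11.6 and 13.9 (median 13.6) with mainstream, between 7.62 and 9.24 (median 7.85) with sidestream and between 7.50 and 8.53 in air. It was 41.5-fold higher, 5.38 ± 0.25 (SE), with no overlap. Mainstream animal 5 was its lowest of the group. Lcn2, which binds bacterial siderophores, ran from 13.4 to 13.9 with mainstream and from 10.6 to 11.2 with sidestream, a 6.6-fold difference. Itih4, a protease inhibitor heavy chain, was 4.94-fold higher, and Cd14, a co-receptor for lipopolysaccharide, 2.6-fold. Steap4, a metalloreductase outside the list, was 4.65-fold higher, with 7 of 8 mainstream arrays above every sidestream array and RW-SS-6 highest of its group at 9.73. Saa1, a circulating serum amyloid, was higher by 1.33 ± 0.15. For Orm1, an acid glycoprotein, the call (1.60 ± 0.49, adjusted p = 0.0261) came with a sidestream array, RW-SS-6, at 9.35, above every mainstream array, while the next sidestream array lay at 6.71. Leaving out any of 5 other arrays moved its adjusted p past the threshold, to at most 0.0693 without mainstream animal 7.

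Among matrix metalloproteinases and their inhibitors 8 of 23 were higher and 1 lower, though the median was -0.03. Mmp12, the macrophage elastase, lay between 9.38 and 10.6 (median 10.3) with mainstream and between 6.26 and 6.81 (median 6.62) with sidestream, without overlap. Its difference was 3.67 ± 0.13 (SE), 12.7-fold, with the smallest adjusted p of all genes (4.04e-26). Timp1, an inhibitor of these enzymes, was 4.3-fold higher, the collagenase Mmp8 2.7-fold and the gelatinase Mmp2 1.94-fold. The member called lower, Plau, the urokinase, had a difference of -0.23 ± 0.08. It was the 1 called gene among 508 with further probe sets for which another probe set was called the opposite way (0.29 ± 0.09), so its direction is uncertain.

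Lysosomal genes were higher in 29 of 55 cases and lower in 1, with a median of 0.21. Of 15 cathepsins and related genes, which included legumain (Lgmn) and the cystatins Cstb and Cst3, 10 were higher. Of 12 subunits of the proton pump 6 were higher. Ctsk, cathepsin K, lay between 11.5 and 12.2 (median 11.9) with mainstream and between 8.77 and 9.27 (median 9.11) with sidestream, without overlap, and was 6.96-fold higher. Cd68, a lysosomal glycoprotein of macrophages, was 2.65-fold and Ctsd, cathepsin D, 1.74-fold higher. Ctsf, cathepsin F, was the member called lower (-0.25 ± 0.08, SE).

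Genes of lipid-laden macrophages were higher in 17 of 27 cases and lower in 1, with a median of 0.50. In whole lung RNA, a change in the number of cells of a type and a change of RNA per cell cannot be told apart, here and for each cell type list that follows. Ch25h, which makes 25-hydroxycholesterol, lay between 9.92 and 10.5 (median 10.2) with mainstream and between 7.01 and 7.81 (median 7.52) with sidestream, a 6.72-fold difference. Gpnmb, a glycoprotein of loaded lysosomes, ran from 10.5 to 11.7 and from 8.19 to 8.72, a 5.95-fold difference. The scavenger receptor Marco was 4.54-fold and Msr1 2.19-fold higher, each without overlap. Trem2, a lipid-sensing receptor, was 2.3-fold higher on the probe set used, while its other probe set differed by 0.01 ± 0.07. Cd36, a fatty acid receptor that endothelium also carries, was the member called lower (-0.22 ± 0.06).

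Genes that define resting alveolar macrophages split, with 6 of 22 higher and 6 lower, median 0.06. Higher were Ctsk, Marco, Itgax, the integrin CD11c (0.92 ± 0.08, SE), and Plet1, a surface protein (0.87 ± 0.09), among others. The other probe set of Plet1 differed by 0.07 ± 0.10. Lower was Fabp1, a fatty acid binding protein, which lay between 5.60 and 6.69 (median 6.31) with mainstream, between 7.92 and 8.66 (median 8.34) with sidestream and between 8.04 and 8.71 in air. Its groups did not overlap and sidestream was 4.34-fold higher. Krt79, a keratin, lay between 7.51 and 8.23 with mainstream and between 8.58 and 9.34 with sidestream, a difference of -1.11 ± 0.11. Siglecf, a sialic acid receptor of alveolar macrophages and eosinophils, was 2-fold higher with sidestream smoke, with 7 of 8 mainstream arrays below every sidestream array. Cidec, a lipid droplet protein, was called at -1.17 ± 0.36 (adjusted p = 0.027), but RW-SS-6 lay at 11.1 and the next sidestream array at 8.42. Without that array its difference was -0.76 with an adjusted p of 0.0903.

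Surface receptors of myeloid cells were higher in 16 of 32 cases and lower in 1, median 0.45. Clec5a, an activating lectin, lay between 7.63 and 8.33 (median 7.80) with mainstream and between 5.41 and 6.34 (median 5.84) with sidestream, a 4.09-fold difference. Clec7a, the beta-glucan receptor, was 2.09-fold, the Fc receptor Fcgr3 1.69-fold and Tlr2, a receptor for bacterial lipoproteins, 1.58-fold higher. Complement genes were higher in 12 of 18 cases, median 0.47, including 5 of 6 of the classical arm and 3 of 3 of the alternative arm. C1qb, a chain of C1q, was 2.25-fold, the alternative arm protease Cfb 2.59-fold and the C3a receptor C3ar1 2.69-fold higher, each without overlap. C5ar1, the C5a receptor, was the member called lower (-0.33 ± 0.10, SE), and the call was lost in 7 of the 16 leave-one-out fits.

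Neutrophil genes gave a smaller count, 7 of 27 higher and 0 lower, median 0.11. Cd177, a neutrophil surface protein, was 1.93-fold higher, and Lcn2, which epithelium also makes, was the member with the largest difference. Of 10 granule genes 2 were higher, Lcn2 and Mmp8, and their median was -0.06. S100a8, an abundant neutrophil calcium binding protein, lay between 10.9 and 12.1 with mainstream and between 10.6 and 12.1 with sidestream (0.15 ± 0.21, SE; adjusted p = 0.719), so the groups overlapped over nearly their whole range.

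Among eosinophil and type 2 immunity genes 6 of 31 were higher and 2 lower. Slc26a4, pendrin, an anion exchanger of goblet and other airway cells, lay between 8.94 and 10.1 (median 9.55) with mainstream and between 5.51 and 7.17 (median 6.46) with sidestream, a 9.11-fold difference without overlap. Retnla, a resistin-like secreted protein, was 1.73-fold higher and was also called higher than air in sidestream lungs (0.72 ± 0.18 in sidestream and 1.52 ± 0.18 in mainstream, SE). The lower members were Siglecf and Ear3, a ribonuclease of eosinophils and alveolar macrophages, which lay between 7.34 and 8.87 with mainstream and between 9.12 and 9.77 with sidestream, a difference of -1.41 ± 0.16. Ear3 belongs to a family of near-identical genes, and its probe set may read several.

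Dendritic cell and antigen presentation genes were higher in 9 of 22 cases and lower in 0, median 0.24. Of 14 dendritic cell genes 8 were called: Fscn1, an actin bundler, was 3.03-fold and Cd83 2.14-fold higher, each without overlap. The 3 other probe sets of Fscn1 differed less, by 0.51 ± 0.15, 0.36 ± 0.09 and 0.14 ± 0.11 (SE). Of 8 MHC class II genes 1 was called, Cd74, the invariant chain (0.23 ± 0.07, SE). Of 12 MHC class I and immunoproteasome genes 0 were called by limma, with 1 at an unadjusted p under 0.05. Interferon-induced genes gave 2 of 34 higher, Cxcl10 and Irf8, and 0 were called without RW-SS-6. B cell and plasma cell genes gave 1 of 25 higher, Fcer2a, the low affinity IgE receptor (0.71 ± 0.15). T and NK cell genes gave 1 of 33, Il7r, the interleukin 7 receptor (0.67 ± 0.16). The shares called in the interferon, B cell and T cell lists, 5.88%, 4% and 3.03%, lay below the 9.77% of all genes. Ly6i, a Ly6 surface antigen of monocytes, was 9.24-fold higher, from 9.08 to 11.5 with mainstream against 6.90 to 8.06 with sidestream. It was the called member of a list of 6 that also held Ly86 and Ly96, which are not Ly6 genes.

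**Figure D3:**
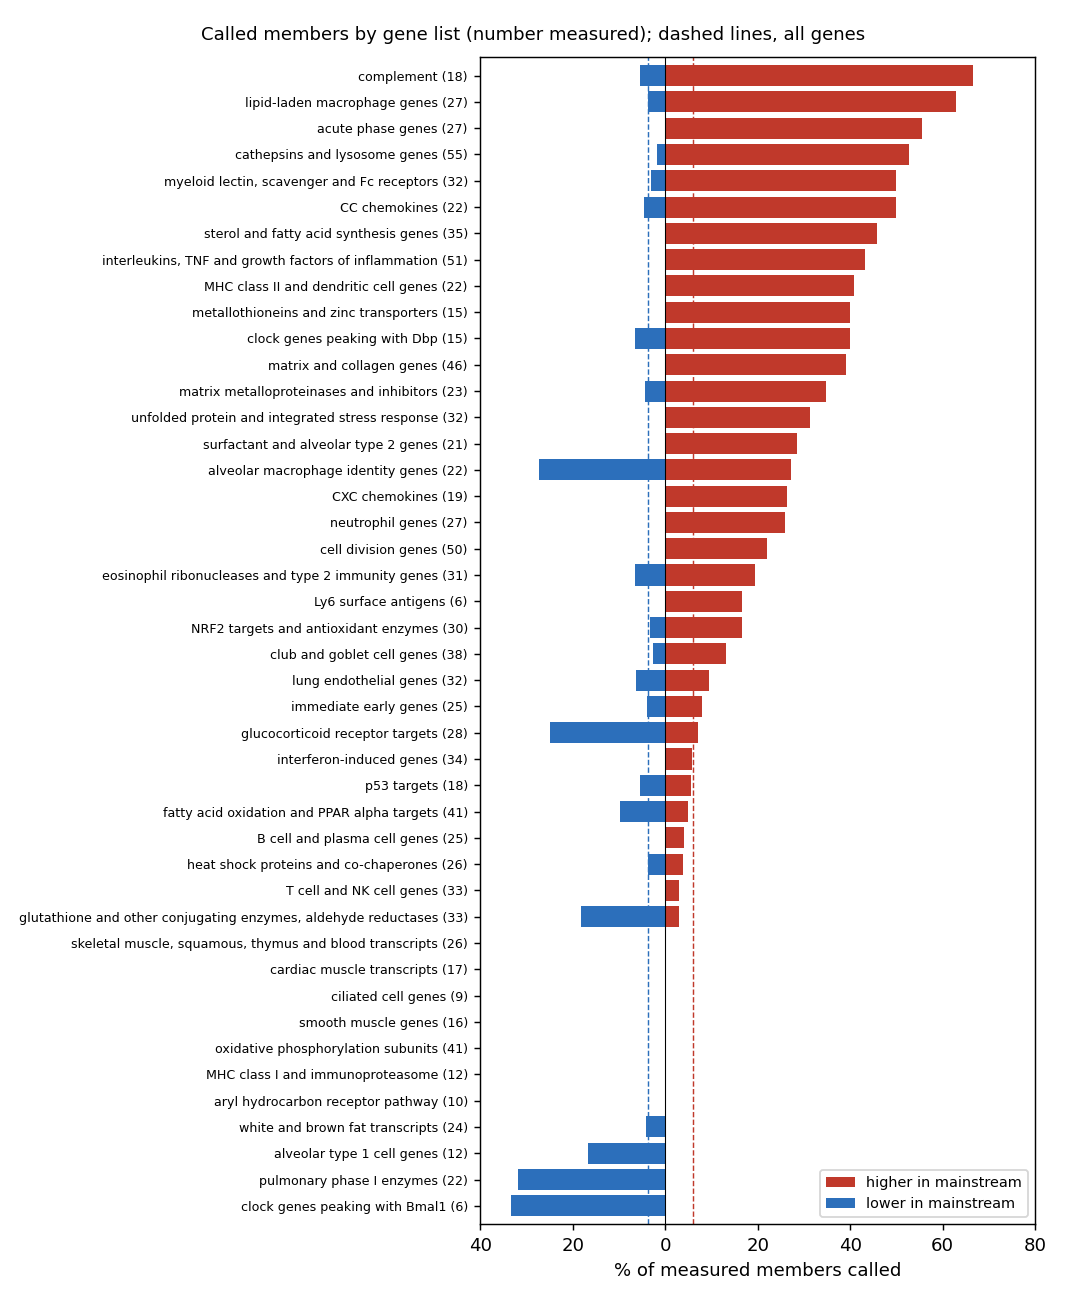
Share of the measured members of each gene list called higher (red, to the right) or lower (blue, to the left) with mainstream than with sidestream smoke; the number measured follows each name and the dashed lines mark the shares over all genes, 6.05% and 3.72%. Complement and lipid-laden macrophage genes have the longest red bars, and phase I enzymes and the Bmal1 group of clock genes have blue bars only.

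Several clock genes differed in another way: for Dbp, Nr1d1, Nr1d2 and Arntl the sidestream mean lay farther from air than the mainstream mean. The molecular clock is a daily cycle in which ARNTL (BMAL1) and its partners CLOCK and NPAS2 activate the genes of their own repressors and of the output factor DBP. Of 15 genes that peak with Dbp, 6 were higher and 1 lower in mainstream, median 0.16, and of 6 genes that peak with Arntl, 2 were lower, median -0.18. Dbp, a D-box binding factor, lay between 9.71 and 10.5 (median 10.3) with mainstream, between 8.28 and 9.70 with sidestream and between 11.1 and 11.8 in air. The 3 groups did not overlap. Mainstream was higher than sidestream by 1.21 ± 0.16 (SE; adjusted p = 1.83e-07), while the difference from air was -1.41 ± 0.16 for mainstream and -2.62 ± 0.16 for sidestream. Arntl ran the other way, between 6.81 and 7.51 (median 7.17) with mainstream, between 7.66 and 8.40 (median 8.00) with sidestream and between 6.33 and 6.84 in air, a mainstream minus sidestream difference of -0.87 ± 0.15.

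The nuclear receptors REV-ERB alpha and beta, which repress Arntl, are encoded by Nr1d1 and Nr1d2. Nr1d1 was higher in mainstream than sidestream by 0.59 ± 0.12 (SE), and its differences from air were -2.03 ± 0.12 with mainstream and -2.61 ± 0.12 with sidestream. Nr1d2 was higher by 0.51 ± 0.08 and the period gene Per3 by 0.45 ± 0.09, each without overlap of the smokes. The other probe sets of Per3 differed by 0.23 ± 0.08 and 0.04 ± 0.08, and neither was called. Bhlhe40, a repressor also called DEC1, lay on both sides of air, higher with mainstream (0.43 ± 0.10) and lower with sidestream (-0.54 ± 0.10), so that mainstream exceeded sidestream by 0.97 ± 0.10. Npas2 was lower in mainstream by -0.37 ± 0.10, with overlap. Per1, a period gene that glucocorticoids and light also induce, was not called (-0.31 ± 0.20, adjusted p = 0.358). The hour of necropsy of each group is not given in the sources used here.

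**Figure D4:**
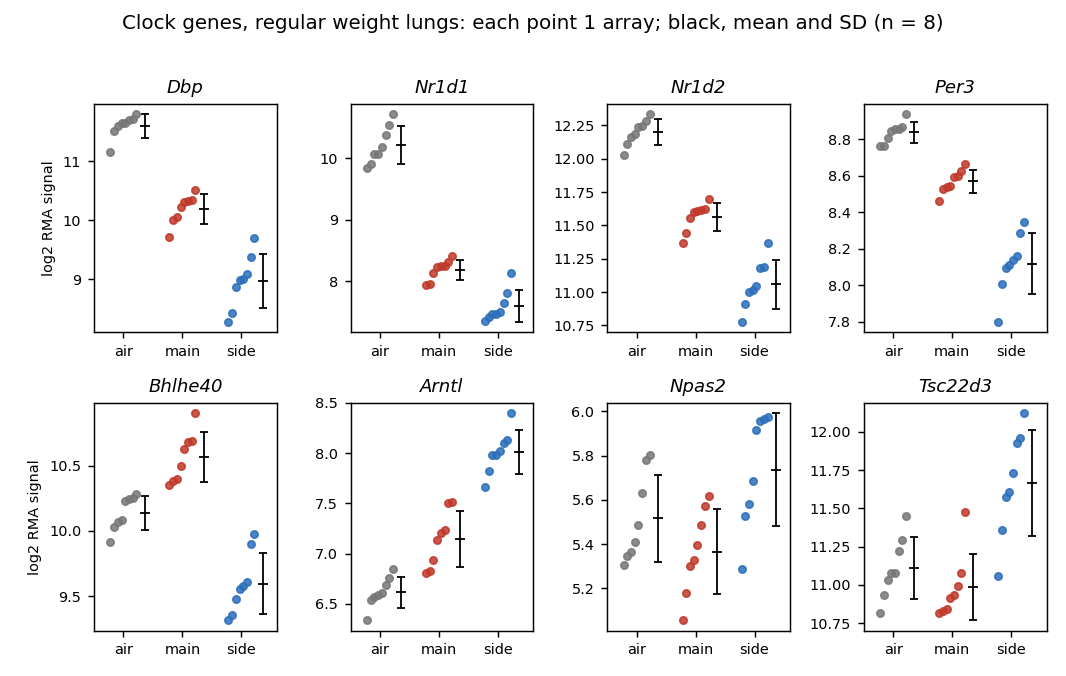
Log2 signal (y axis, own scale per panel) of 7 clock genes and Tsc22d3 on every regular weight array, for filtered air (grey), mainstream (red) and sidestream smoke (blue), 8 animals each; black bars give the mean and SD. For Dbp, Nr1d2 and Per3 the 3 groups form separate steps with sidestream lowest, and for Arntl sidestream is highest while the mainstream and air points touch.

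Promoter windows of a gene on each side of this cycle are shown, from the same RefSeq table, because these genes moved in opposite directions. The core TAGGTCA, to which REV-ERB and ROR receptors bind, was found on either strand in 2.61% of the windows searched and is in capitals for Arntl. The D-box TTATGTAA, to which DBP binds, was found in 0.938% and occurs 2 times in the window of Per3. Of the 9 called clock genes 8 had a window, and Arntl was the 1 with the first core and Per3 the 1 with the D-box. The clock E-box CACGTG was searched too, and of the 8 genes 1 held it, Tspan4. It was found in 10.8% of the tested genes that have a window.
Arntl, chr7:113207261-113207560, plus strand: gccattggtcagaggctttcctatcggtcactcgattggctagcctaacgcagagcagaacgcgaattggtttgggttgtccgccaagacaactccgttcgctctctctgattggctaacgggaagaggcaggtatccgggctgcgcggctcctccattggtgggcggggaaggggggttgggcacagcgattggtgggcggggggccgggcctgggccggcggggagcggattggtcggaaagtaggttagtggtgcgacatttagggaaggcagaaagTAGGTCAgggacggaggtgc
Per3, chr4:151044616-151044915, minus strand: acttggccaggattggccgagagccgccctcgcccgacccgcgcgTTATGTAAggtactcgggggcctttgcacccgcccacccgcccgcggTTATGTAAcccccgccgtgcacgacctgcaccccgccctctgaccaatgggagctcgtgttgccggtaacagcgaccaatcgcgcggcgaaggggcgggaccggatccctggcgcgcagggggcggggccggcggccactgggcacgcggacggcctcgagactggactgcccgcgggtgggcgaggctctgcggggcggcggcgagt

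Glucocorticoid receptor targets leaned lower in mainstream, with 2 of 26 higher and 6 lower, median -0.19. The list also held the receptor gene Nr3c1, not called, and the enzyme gene Hsd11b1, called lower. In obese animals 6 of the 26 targets were called higher and 6 lower in mainstream than in sidestream, median 0.07. Tsc22d3 (GILZ), a glucocorticoid-induced leucine zipper protein, lay between 10.8 and 11.5 (median 10.9) with mainstream, between 11.1 and 12.1 (median 11.7) with sidestream and between 10.8 and 11.4 in air. It was lower in mainstream by -0.68 ± 0.14 (SE), and sidestream was higher than air by 0.56 ± 0.14. The other probe sets of Tsc22d3 differed between the smokes by -0.72 ± 0.14 and -0.28 ± 0.10, and the latter was not called. Klf15, a metabolic transcription factor, was lower by -0.80 ± 0.14 without overlap. Zbtb16, a zinc finger factor, was lower by -1.01 ± 0.27 on its brightest probe set, with overlapping groups, and by -0.33 ± 0.14 on its other probe set. Of the higher members Lcn2 is also an acute phase gene. Among immediate early genes 2 of 25 were higher, Junb (0.69 ± 0.14) and Egr2 (0.56 ± 0.16), both activity-induced transcription factors. In that list 1 was lower, Ccn2, a matricellular growth factor (-0.38 ± 0.12). The share called, 12%, lay near the 9.77% of all genes.

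Of 10 genes of the aryl hydrocarbon receptor pathway 0 were called between the smokes by limma, and 1 had an unadjusted p under 0.05. Cyp1a1, its most inducible target, lay between 8.62 and 9.20 (median 8.87) with mainstream and between 8.59 and 10.1 (median 8.98) with sidestream. The difference was -0.16 ± 0.21 (SE; adjusted p = 0.712). Cyp1b1, a related monooxygenase, differed by -0.01 ± 0.14 between the smokes, while it was called higher than air in both, by 0.58 ± 0.14 with mainstream and 0.59 ± 0.14 with sidestream. Both Cyp1b1 differences use the same air arrays. The other members did not all follow it. Of the 3 measured cytochrome P450 targets, 1 was called higher and 1 lower than air with mainstream, and 1 higher and 0 lower with sidestream. Over the 10 genes, 2 were higher and 2 lower than air with mainstream, and 1 higher and 0 lower with sidestream.

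NRF2 targets and antioxidant enzymes gave 5 of 30 higher and 1 lower, with a median of -0.01. Gclc, the catalytic subunit of the rate-limiting enzyme of glutathione synthesis, lay between 11.2 and 11.9 (median 11.5) with mainstream and between 10.1 and 11.01 (median 10.8) with sidestream, and was 1.7-fold higher without overlap. Slc7a11, the cystine transporter, was 1.51-fold and Hmox1, haem oxygenase 1, 1.43-fold higher. Nqo1, a quinone reductase and common NRF2 marker, was not called (-0.27 ± 0.12, SE; adjusted p = 0.159). It was called lower with only the 16 smoke arrays (adjusted p = 0.0478), with the 24 regular weight arrays (0.0471), with array weights (0.0384) and without the 5 arrays that stood apart (-0.29, adjusted p = 0.01). Gpx4, which reduces lipid peroxides, was the member called lower (-0.17 ± 0.06).

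Some enzymes that process foreign compounds were lower with mainstream smoke. Of 22 phase I enzymes 7 were lower and 0 higher, median -0.22. Of the 7, 5 came from a group of 9 that held esterases, aldehyde oxidases and the epoxide hydrolase Ephx1. Pon1, paraoxonase 1, had medians of 11.2 with mainstream and 11.9 with sidestream, all mainstream arrays lay at 11.4 or below and all sidestream arrays at 11.7 or above, a difference of -0.76 ± 0.13 (SE). The carboxylesterase Ces1g was lower by -0.68 ± 0.17, aldehyde oxidase Aox3 by -0.51 ± 0.13 and the abundant lung P450 gene Cyp4b1 by -0.32 ± 0.09. Of 33 conjugating enzymes and aldehyde reductases 6 were lower and 1 higher, median -0.17. The lower ones were 5 of 19 glutathione transferases, among them Gstm2 (-0.30 ± 0.09), and the sulfotransferase Sult1a1 (-0.59 ± 0.14). The higher one was Akr1b8, an aldehyde reductase (0.41 ± 0.10). Without RW-SS-6 the phase I count was 6 and the conjugating count 4 lower, and without the 5 arrays that stood apart they were 13 and 14.

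Fatty acid oxidation and PPAR alpha targets gave 2 of 41 higher and 4 lower, and the lower ones included the largest decrease of the comparison. The share called was 14.6%, against 9.77% of all genes. Acaa1b, a peroxisomal thiolase, lay between 5.18 and 6.49 (median 5.63) with mainstream, between 8.05 and 9.39 (median 8.24) with sidestream and between 7.93 and 8.37 in air. Sidestream was 6.51-fold higher, with no overlap (-2.70 ± 0.16, SE; adjusted p = 5.74e-18). Vnn1, vanin 1, a pantetheinase, went the other way and was 4.36-fold higher in mainstream. Of 17 mitochondrial oxidation genes 0 were called by limma (1 at an unadjusted p under 0.05), and of 41 subunits of oxidative phosphorylation 0 (2 at that level). Acot1, an acyl-CoA thioesterase, was lower by -0.75 ± 0.14. Among the 20 largest decreases of called genes were also 3 of the brain-expressed X-linked family: Bex2 lay between 8.44 and 9.30 with mainstream and between 9.81 and 10.4 with sidestream (-1.05 ± 0.18), Bex4 was lower by -0.74 ± 0.15 and Bex1 by -0.84 ± 0.17. The other genes of that group were Asgr1, a subunit of the asialoglycoprotein receptor (-0.98 ± 0.16), Hes2, a transcriptional repressor (-0.80 ± 0.11), Iyd, iodotyrosine deiodinase (-0.80 ± 0.13), and Gjb6, connexin 30 (-0.75 ± 0.17).

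Sterol synthesis genes were higher with mainstream smoke in 14 of 19 cases, with a median of 0.41, while 2 of 16 fatty acid synthesis genes were higher with a median of -0.03. Hmgcs1, the synthase at the start of the mevalonate pathway, lay between 10.8 and 11.5 (median 11.1) with mainstream and between 10.4 and 10.7 (median 10.6) with sidestream, without overlap (0.56 ± 0.07, SE). Sqle, squalene epoxidase, was higher by 0.55 ± 0.07 and Cyp51, lanosterol demethylase, by 0.64 ± 0.09, with 0.73 ± 0.12 and 0.08 ± 0.08 on its other probe sets. Genes of the unfolded protein and integrated stress responses were higher in 10 of 32 cases and lower in 0, median 0.15, with 7 of 15 chaperones of the endoplasmic reticulum. Hspa5 (BiP) was 1.29-fold higher and Psat1, a serine synthesis enzyme, 1.6-fold. Of 26 heat shock genes 1 was higher, Hspa4 (0.22 ± 0.06), and 1 lower, the cold-inducible Cirbp (-0.58 ± 0.12). The share called, 7.69%, lay near the 9.77% of all genes. Of 18 p53 targets 1 was higher, Aen (0.20 ± 0.06), and 1 lower, the death receptor Fas (-0.43 ± 0.09), a share of 11.1% that also lay near 9.77%. The other probe sets of Aen differed by 0.13 ± 0.07 and -0.16 ± 0.09. Of 15 metallothioneins and metal transporters 6 were higher and 0 lower, and the largest difference was that of the transferrin receptor Tfrc (0.63 ± 0.08). The other probe sets of Tfrc differed by 0.41 ± 0.11 and 0.49 ± 0.17, and the latter was not called.

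Cell division genes had a median of 0.53 and 11 of 50 called higher, 0 lower. Mki67, a marker of cycling cells, lay between 7.16 and 8.91 (median 7.53) with mainstream and between 6.12 and 6.73 (median 6.40) with sidestream, without overlap, a 2.42-fold difference. Rrm2, a subunit of ribonucleotide reductase, was 2.14-fold and the cyclin-dependent kinase Cdk1 1.94-fold higher. The other probe sets of Rrm2 differed by 1.02 ± 0.33 and 0.73 ± 0.32 (SE), and the latter was not called. Without mainstream animal 5 the adjusted p was 0.0503 for Rrm2 and 0.0851 for Cdk1. Top2a, topoisomerase 2 alpha, differed by a similar size (1.01 ± 0.35, SE) and missed the threshold with an adjusted p of 0.054, although its groups did not overlap. Top2a was called with only the 16 smoke arrays (adjusted p = 0.00165), with the 24 regular weight arrays (0.000166), with array weights (0.00012) and without the 5 arrays that stood apart (7.49e-06). Its other probe set differed by -0.16 ± 0.10, and the mean of both by 0.43 (adjusted p = 0.121). The count was 7 without RW-SS-6 and 39 without the 5 arrays that stood apart.

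Matrix genes were higher in 18 of 46 cases and lower in 0, median 0.21, with 5 of 7 fibrillar collagens. Tnc, tenascin C, a glycoprotein of wounds, lay between 7.04 and 9.70 (median 7.58) with mainstream and between 6.44 and 7.10 (median 6.59) with sidestream, a 2.4-fold difference. Col1a1 and Col3a1, chains of collagens I and III, were 1.81-fold and 1.75-fold higher, and Fn1, fibronectin, 1.58-fold. Of 16 smooth muscle genes 0 were called by limma, with 1 at an unadjusted p under 0.05.

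Of 21 surfactant and alveolar type 2 genes 6 were higher, 0 lower, median 0.13: Sftpd, the collectin surfactant protein D, lay between 14.4 and 14.5 with mainstream and between 13.8 and 14.1 with sidestream, 1.4-fold higher, and the mucin Muc1 was 1.54-fold higher. Of 12 alveolar type 1 genes 2 were lower, Hopx (-0.21 ± 0.06, SE) and Cav1, caveolin 1 (-0.21 ± 0.07). Club and goblet cell genes gave 5 of 38 higher and 1 lower: Pigr, the receptor that carries IgA across epithelium, lay between 9.69 and 10.6 (median 10.5) with mainstream and between 8.06 and 8.87 (median 8.54) with sidestream, 3.52-fold higher, and Cldn10, a claudin of club cells, was lower by -0.65 ± 0.10 without overlap. Of 9 ciliated cell genes 0 were called by limma, with 1 at an unadjusted p under 0.05. Lung endothelial genes gave 3 of 32 higher and 2 lower, median -0.15. The higher ones were adhesion molecules, among them Selp, P-selectin (0.74 ± 0.21), and Vcam1 (0.67 ± 0.11), and the lower ones Icam2 (-0.31 ± 0.09) and Ramp2, an adrenomedullin co-receptor (-0.33 ± 0.11). The other probe set of Selp differed by 0.52 ± 0.20 and was not called. Without the 5 arrays that stood apart, 10 endothelial genes and 6 alveolar type 1 genes were called lower. Of 24 fat genes 0 were higher and 1 lower, Cidec, and of 17 cardiac muscle genes and 26 skeletal muscle, squamous, thymus and blood genes 0 were called by limma, with 0 at an unadjusted p under 0.05. The shares called in the alveolar type 1, club and goblet, endothelial and fat lists were 16.7%, 15.8%, 15.6% and 4.17%, against 9.77% of all genes.

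Obese animals gave a comparison of the same smokes in arrays that share no sample with the regular weight ones. There 2086 genes were called, 16.8% of all, 8.83% higher and 8% lower with mainstream smoke. Of the 1211 genes called in regular weight animals, 1169 had the same sign in obese animals, 844 were called in the same direction and 0 in the opposite one. The 844 made up 69.7% of the regular weight calls and 40.5% of the obese calls. Of the 258 past 1.5-fold, 238 were called in the same direction. Saa3 differed by 5.83 in obese animals against 5.38, Mmp12 by 4.08 against 3.67, Cxcl1 by 4.27 against 3.43, and Acaa1b by -3.12 against -2.70. Among obese animals in mainstream smoke, numbers 1 and 6 had low array weights, 0.24 and 0.26, the rest 0.91 or more. The summed level of the CXC list, built as for the fat genes, had a mean of 0.77 and a median of 0.45 there. In regular weight mainstream animals these were 0.42 and 0.46. How much single arrays add to the obese differences was not tested. The difference between the diets was called for 1 gene of 12393, 0.00807% (limma; 624 genes had an unadjusted p under 0.05). It was Saa1, whose mainstream minus sidestream difference was 1.33 in regular weight and 2.56 in obese animals. Saa1 was dim, with a mean signal under the 25th percentile of all genes. Its probe set may cross-hybridize, and its other probe set differed by 1.81 ± 0.17 (SE) in regular weight. Over all genes the differences in both diets correlated with a Pearson r of 0.826 and a Spearman rho of 0.657, given as a description, since genes are not independent replicates. Zbtb16 and Fas, lower in regular weight, differed by 0.11 and 0.05 in obese animals, without a call of the diet difference (adjusted p = 0.624 and 0.186).

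**Figure D5:**
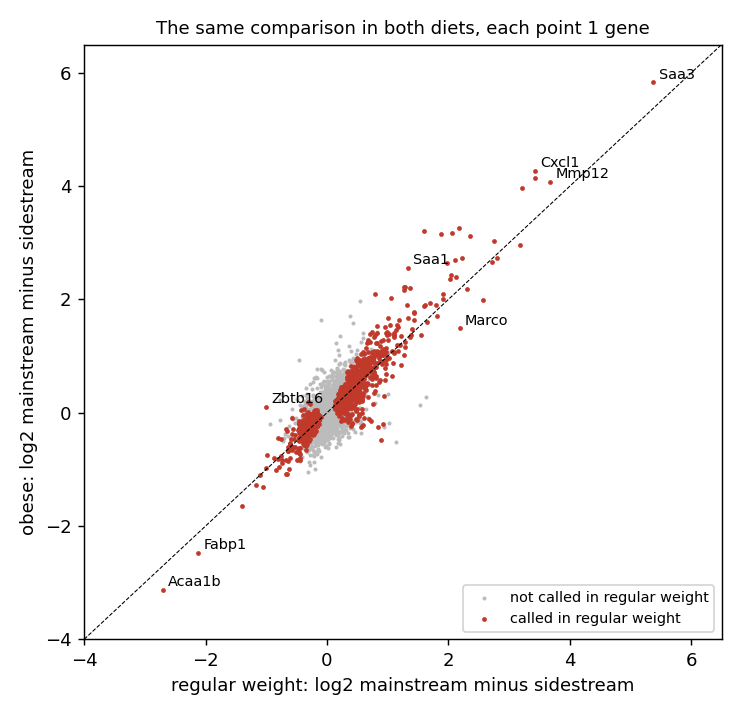
Log2 mainstream minus sidestream difference of each gene in regular weight animals (x axis) and in obese animals (y axis); red points were called in regular weight animals and the dashed line marks equal differences. Saa3 lies at 5.38 and 5.83, Acaa1b at -2.70 and -3.12, and Saa1 above the line at 1.33 and 2.56.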

How the data were processed

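RNA of whole mouse lungs was hybridised to 1 Affymetrix array per animal, and 48 arrays in 6 groups of 8 were used. The authors' deposited values are log2 signals made with RMA, per the submitters' processing notes, which give no version; whether all arrays were normalized together is not given in the sources used here. RMA subtracts background, quantile normalizes and summarizes probe sets, which can compress differences of dim genes.

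Of 22690 probe sets, 20380 carried 1 gene symbol in GEO's platform annotation, 691 several, 1555 none and 64 were controls. The probe set with the highest mean over 48 arrays stood for each of 12393 genes (4956 had several). limma 3.58.1 (R 4.3.3) fitted a mean per group over all 48 arrays, with 42 residual degrees of freedom and a two-sided contrast of mainstream minus sidestream. p-values were adjusted by Benjamini-Hochberg over all genes and called under 0.05, and the script was tested on simulated data. The number of arrays limits the precision. The labels call the samples biological replicates, and the sources of animals 7 and 8 repeat the numbers 5 and 6; these arrays were kept as separate animals.

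Named genes are the 20 largest differences each way among called genes, members of the gene lists, and genes called between the diets. The members and lists were chosen with earlier results of these data known, and the promoter motifs after the values were seen. Alternatives covered the arrays used, array weights, centring, normalization, filters, probe set choice, variance models, an exact permutation test and each array left out.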

Additional observations from a re-analysis of the deposited data

Results flagged for a closer look

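The gap of the highest or lowest array to the next one, as a share of the range of its group of 8, was computed for the named genes in each smoke group and set against Dixon's 95% critical value. It was exceeded in 31 of 272 groups, where chance gives about 1 in 20, and genes share arrays.

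Mainstream animal 5 was the lowest of its group for Saa3 (share 0.757), Mmp12 (0.665), Ly6i (0.563), Steap4 (0.734), Vnn1 (0.83) and Cxcl2 (0.744), and the highest for Hmox1 (0.599) and Hspa4 (0.611). Its Saa3 signal was 11.6, the next animal's 13.4. Mainstream animal 7 was the highest for Cxcl10 (0.585), Orm1 (0.684) and Cd177 (0.639) and the lowest for Bex2 (0.729), Bex1 (0.604), Asgr1 (0.576), Ccl27a (0.649), Nqo1 (0.62) and Cldn10 (0.585). Sidestream animal 6 was the highest for Ucp1 (0.926), Cidec (0.76), Steap4 (0.71), Acaa1b (0.615), Orm1 (0.597) and Cyp1b1 (0.544) and the lowest for Ccn2 (0.587). Single genes set apart mainstream animals 1 (Ucp1, 0.584), 6 (Tsc22d3, 0.609) and 8 (Gpx4, 0.555) and sidestream animals 1 (Saa3, 0.627), 7 (Fscn1, 0.533) and 8 (Cyp1a1, 0.609, and Ces1g, 0.542).

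The smokes differed by diet for Saa1: the mainstream minus sidestream difference was 1.33 in regular weight and 2.56 in obese animals, a difference of -1.23 in the limma interaction.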

How the results depend on the processing

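The count of 1211 called genes was 1725 with only the 16 smoke arrays and 1718 with the 24 regular weight arrays, where 752 and 743 genes were lower. It was 2116 without the 5 arrays that stood apart (1030 lower) and 2169 with array weights (1074 lower). The count lay between 888, without mainstream animal 7, and 1259 over the fits that each left out 1 array; genes called higher ran from 596 to 793, lower from 279 to 466, and past 1.5-fold from 205 to 268. Genes called between the diets numbered 1. The number was 1 to 3 over the fits that left out 1 array and 3 without the 5 arrays. It was 2 with the mean of all probe sets, 11 with array weights and 0 without dim genes, a filter that also removed Saa1. Centring each array gave 1298 calls, 56.3% of them higher, and repeating quantile normalization 1374, 53.3% of them higher, against 61.9%.

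Replicate numbers were not used to pair the samples, since the labels give no shared cage, day or batch for a number. Same-numbered arrays deviated together with correlations from -0.15 to 0.46. Differently numbered arrays were not set beside them, so a pairing by number was not tested. With the replicate number as a block, 1122 genes were called, 1076 of them shared, and 0 between the diets.

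Of the named genes 23 lost their call in at least 1 fit that left out an array, most often Ccn2 and Irf8 (13 of 16), Plau and Gpx4 (11), and Aen, Cav1 and Ramp2 (10). Plau reversed to 0.031 with the mean of all probe sets. Cyp1b1, near 0, turned to 0.084 with array weights and 0.060 without the 5 arrays, and ran from -0.059 to 0.060 without single arrays. Ucp1, not called, ran from -1.12 to 0.10 without single arrays, and was 0.10 without RW-SS-6, alone or with the other 4. Trem2 and Zbtb16 lost their call without probe sets that may cross-hybridize (0.01 and -0.33). In these cases the cause was not tested. Dim signals near background limit what differences of low genes can show.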
